A study of Arabidopsis thaliana with 6 samples.

Results

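The genes described here are 10 of the 33602 gene models counted in the study: the 4 nuclear genes for the small subunit of Rubisco (RBCS1A, RBCS1B, RBCS2B and RBCS3B), the gene for Rubisco activase (RCA), and 5 genes for polypeptides of the Calvin cycle (PRK, GAPA1, GAPB, SBPASE and CFBP1). They are given by locus, and every one of them had a row in the counts of each library. The question behind the libraries was how little RNA from microdissected Arabidopsis embryos can be sequenced, and there were 6 of them, all of untreated wild-type (Col-0) material, 1 for each of 10, 25, 50, 75 and 100 pg and 5 ng of total RNA. They are described as dilutions of one RNA sample from whole cotyledons, cut by laser from paraffin sections of developing seeds and pooled over several siliques and plants, while the labels give the tissue as seed, at Boyes stage 6.30. Poly(A) RNA was copied and amplified with the SMART-Seq v4 kit and sequenced as read pairs without strand information. The deposited libraries of 10 to 100 pg come from the second sequencing date and that of 5 ng from the first, so that the date and the step to 5 ng cannot be told apart. The paper had the 100 pg sample sequenced on both dates, and its date correction raised the correlation between these runs. It kept only the second run, and the ratios to 5 ng below carry no such correction.

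Rubisco fixes CO2 onto ribulose bisphosphate in the chloroplast stroma. Its large subunit is made from a chloroplast gene, and its small subunit from a small family of nuclear genes that are among the most strongly expressed genes of green tissue. The other enzymes of the Calvin cycle reduce the product with NADPH and ATP and rebuild the acceptor. Arabidopsis embryos turn green as they grow, and in oilseed embryos, as shown in Brassica napus, Rubisco also recaptures CO2 set free while oil is made.

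The 4 RBCS genes are shown first as sequence, because their similarity decides which reads can be counted for each of them. RBCS1A lies on chromosome 1 and the other 3 lie side by side on chromosome 5, all on the minus strand (TAIR10.1). Below are the first 100 bases of each spliced coding sequence, which encode the start of the transit peptide that carries the protein into the chloroplast, with capitals where a base differs from RBCS1A.
RBCS1A (coding region chr1:25048465-25049249): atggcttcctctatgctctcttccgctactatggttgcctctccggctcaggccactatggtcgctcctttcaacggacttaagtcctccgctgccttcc
RBCS1B (coding region chr5:15384350-15385155): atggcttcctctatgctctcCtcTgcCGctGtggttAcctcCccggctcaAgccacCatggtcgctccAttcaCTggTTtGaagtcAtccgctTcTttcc
RBCS2B (coding region chr5:15381203-15381978): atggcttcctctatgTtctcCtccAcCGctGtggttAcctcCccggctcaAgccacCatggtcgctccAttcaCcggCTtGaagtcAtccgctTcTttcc
RBCS3B (coding region chr5:15377501-15378306): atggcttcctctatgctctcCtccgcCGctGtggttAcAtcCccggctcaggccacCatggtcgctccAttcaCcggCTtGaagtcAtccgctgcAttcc
In this stretch RBCS1B and RBCS2B each differed from RBCS1A at 18 bases and RBCS3B at 15. Over the whole coding sequence RBCS1A was 90.4% to 90.6% identical to the 3 chromosome 5 genes, which were 96.7% to 97.3% identical to each other. RBCS1B and RBCS3B shared an identical run of 230 bases, longer than a read of 100 bases, and 131 of the 447 stretches of 100 bases in RBCS1B (29.3%) occurred unchanged in RBCS3B. No stretch of 100 coding bases of RBCS1A or RBCS2B occurred in another of the 4 genes. At full read length RBCS1A can therefore be counted apart from the rest, while the split between RBCS1B and RBCS3B is uncertain. The longest runs that RBCS2B shared were 96 bases with RBCS3B and 89 with RBCS1B, and the longest of RBCS1A was 67. Reads had been trimmed, and some may have been shorter than these runs, so the counts of RBCS2B are also less certain than those of RBCS1A.

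The sequence upstream of the start codon was searched for the I-box core GATAAG and the G-box core CACGTG, elements known from light-regulated promoters of RBCS genes in several plants. In RBCS1A, RBCS2B and RBCS3B, 3 of the 10 genes, both stood in the same order within 30 bases, with the motifs in capitals below, written on the strand of the gene.
RBCS1A (chr1:25049503-25049532, minus strand): GATAAGattcatggaattatcttcCACGTG
RBCS2B (chr5:15382189-15382217, minus strand): GATAAGattatggagttttctgcCACGTG
RBCS3B (chr5:15378518-15378546, minus strand): GATAAGataatggagttttctgcCACGTG
These units began 283, 239 and 240 bases before the start codon of RBCS1A, RBCS2B and RBCS3B. The annotation placed that of RBCS1A inside 1 of its 2 transcripts and that of RBCS3B inside 1 of its 3, and that of RBCS2B before its only transcript. The RBCS2B and RBCS3B units were identical at 28 of 29 bases. GATAAG followed by CACGTG within 30 bases, on either strand, occurred in 44 of 27443 windows of 500 bases upstream of a start codon (0.160%). CACGTG alone occurred in 9.30% of these windows and GATAAG on either strand in 23.5%, against 6 and 9 of the 10 genes. The window of RBCS1B held GATAAG but not CACGTG. These are matches of letters, and no binding was measured.

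Each library held between 22403342 read pairs counted for a gene (75 pg) and 51130296 (5 ng). Levels are given as CPM, the read pairs of a gene scaled to the library total, corrected with TMM factors, which ranged over 1.07 to 1.41 in the libraries of 10 to 100 pg and came to 0.306 at 5 ng. The library of 5 ng stood apart in its content. The 11 marker genes of storage proteins and oil bodies took 66.8% of its read pairs, against between 0.0446% and 0.0525% of those from 10 to 100 pg, where between 0 and 6 of the 11 had no read pair, with SESA4 and CRU2 at 0 in each library from 10 to 75 pg. Summed over 10 markers of photosynthetic tissue the level was between 6067 and 8039 CPM from 10 to 100 pg and 2030 CPM at 5 ng, led by CAB1 and CAB3, near copies of a light-harvesting gene. Markers of the seed parts around the embryo were present too. The 6 genes of the seed coat summed to between 62.9 and 104 CPM from 10 to 100 pg and to 198 CPM at 5 ng. TT10 was present at 5 ng and at 0 in the other 5 libraries. The 6 genes of the endosperm summed to between 69.3 and 164 CPM from 10 to 100 pg and to 2.56 CPM at 5 ng. FWA was at 0 in all 6 libraries. MUM4 and TTG2 led the seed coat genes at 100 pg, and ALE1 and RGE1 those of the endosperm. The 6 seed coat genes did not move together. With TMM factors 2 of them, TT10 included, were at least 2-fold lower than at 5 ng in each amount from 10 to 100 pg. TTG2 was at least 2-fold higher in each, and 3 passed neither limit, compared with 14.6% lower and 12% higher of all gene models. Without the factors 1 was lower and 1 higher, compared with 5.22% and 28.7%. Of the 6 endosperm genes, 2 (RGE1 and ALE1) were at least 2-fold higher than at 5 ng in each amount and 0 lower with TMM factors. The counts were the same without the factors, against the same shares of all gene models. Among the storage and oil body genes, AT3G01570 and OLEO2 led at 100 pg. The part of these differences in the results below was not tested. Whether the library of 5 ng holds the same RNA as the others, as described, or RNA of another sample or stage was not tested, and every ratio to 5 ng below is therefore a ratio to this one library, whatever RNA it holds. If it came from other tissue, fewer cells of a type and less RNA per cell cannot be told apart.

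All 10 genes had at least 10 read pairs in every library from 10 to 100 pg, and 9 of them were detected in all 6. Together they took 0.956%, 0.944%, 0.994%, 0.858% and 0.700% of the read pairs from 10 to 100 pg, and 0.210% at 5 ng. Since every amount was sequenced from a single library, the values carry no replicate error and amounts were not tested against each other.

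**Figure D1:**
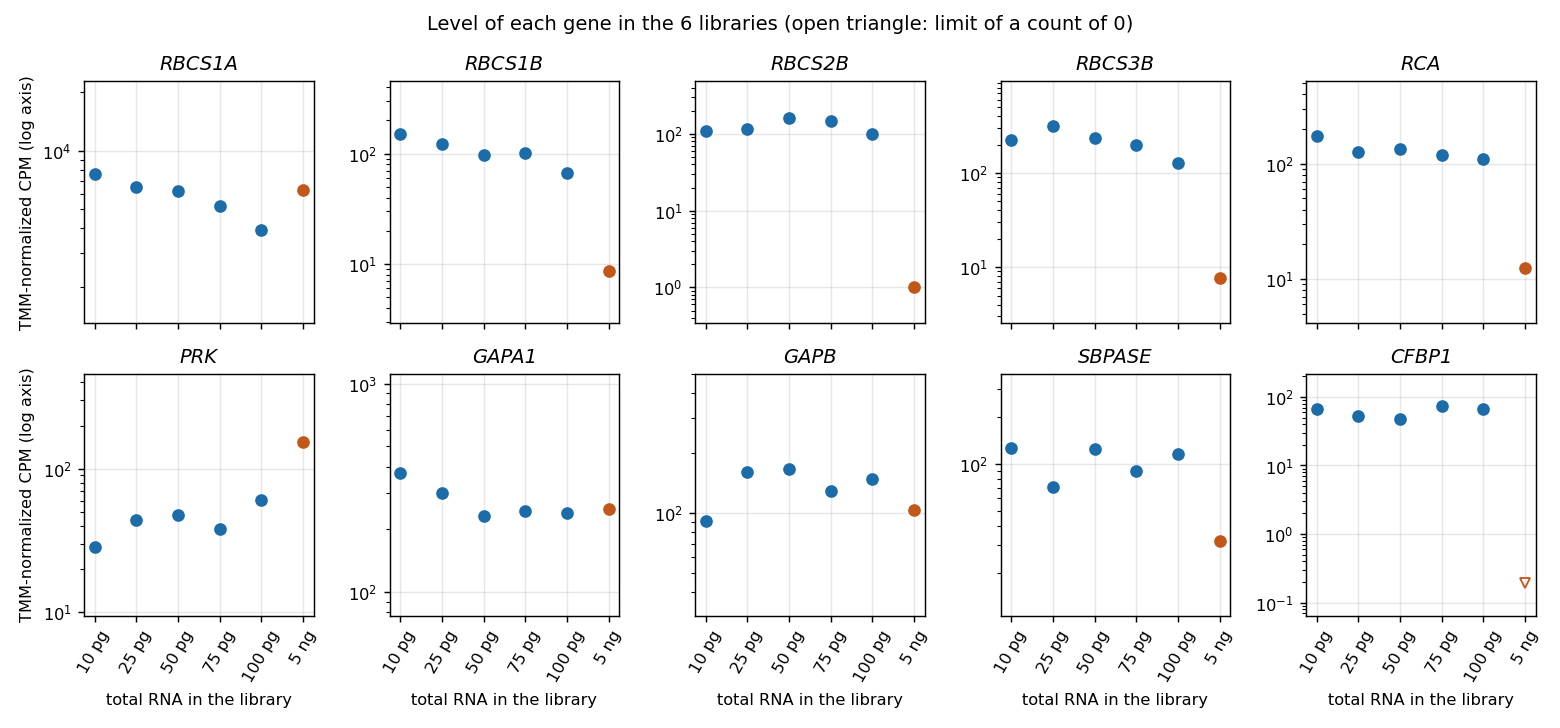
Level of each of the 10 genes (TMM-normalized CPM, log axis) in the libraries of 10, 25, 50, 75 and 100 pg (blue) and 5 ng (orange), 1 point per library; the open triangle is the limit that a count of 0 allows. RBCS1B, RBCS2B, RBCS3B, RCA, SBPASE and CFBP1 were lower at 5 ng than in each smaller amount, and PRK was higher at 5 ng with the TMM factors plotted, but without them lower at 5 ng than at 25 to 100 pg.

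RBCS1A (AT1G67090, chr1:25048158-25049667) carried nearly all the small subunit signal. Its level was 7581, 6544, 6239, 5207 and 3917 CPM from 10 to 100 pg, and 6296 CPM at 5 ng. With TMM factors the values from 10 to 100 pg thus stood in the reverse order of the RNA amount and that of 5 ng lay within them, whereas without the factors 50 pg was highest, at 8284 CPM, and 5 ng lay below all, at 1925 CPM. Per kb of transcript it ranked 4, 3, 2, 3 and 4 among all gene models from 10 to 100 pg, and 31 at 5 ng.

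The chromosome 5 genes behaved differently between the amounts. RBCS2B (AT5G38420, chr5:15380907-15382071) had 108, 117, 162, 148 and 99.2 CPM from 10 to 100 pg, and 1.02 CPM at 5 ng, which rested on 16 read pairs. RBCS3B (AT5G38410, chr5:15376988-15378642) had 223, 316, 236, 198.5 and 126 CPM from 10 to 100 pg, and 7.61 CPM at 5 ng (119 read pairs). RBCS1B (AT5G38430, chr5:15383167-15385320) had 151, 122, 97.1, 101 and 67.0 CPM from 10 to 100 pg, and 8.70 CPM at 5 ng (136 read pairs). In all 3 the level at 5 ng lay below every smaller amount. Without a pseudocount, 100 pg exceeded 5 ng by 96.9-fold for RBCS2B, 16.6-fold for RBCS3B and 7.70-fold for RBCS1B, and 10 pg exceeded it by 106-fold, 29.3-fold and 17.4-fold in the same order. For RBCS1A the corresponding ratios were 0.622 and 1.2.

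As a share of the small subunit transcripts, RBCS1A made up 94.0% (95% exact Clopper-Pearson interval 93.9 to 94.1), 92.2% (92.1 to 92.3), 92.6% (92.5 to 92.7), 92.1% (92.0 to 92.2) and 93.1% (92.9 to 93.2) of the read pairs of the 4 genes from 10 to 100 pg. At 5 ng its share was 99.7% (99.7 to 99.8). The share thus stayed within 2 percentage points over the libraries of 10 to 100 pg, with an order among them that did not follow the amount. The intervals cover only the counting of read pairs, which after PCR are not independent molecules. The chromosome 5 genes together had 13824, 19440, 18851, 13534 and 12733 read pairs from 10 to 100 pg, and 271 at 5 ng. Among them RBCS3B had the most from 10 to 100 pg, also per kb of transcript, with 2.77%, 4.45%, 3.51%, 3.51% and 3.0% of the small subunit pairs, and 0.121% at 5 ng.

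**Figure D2:**
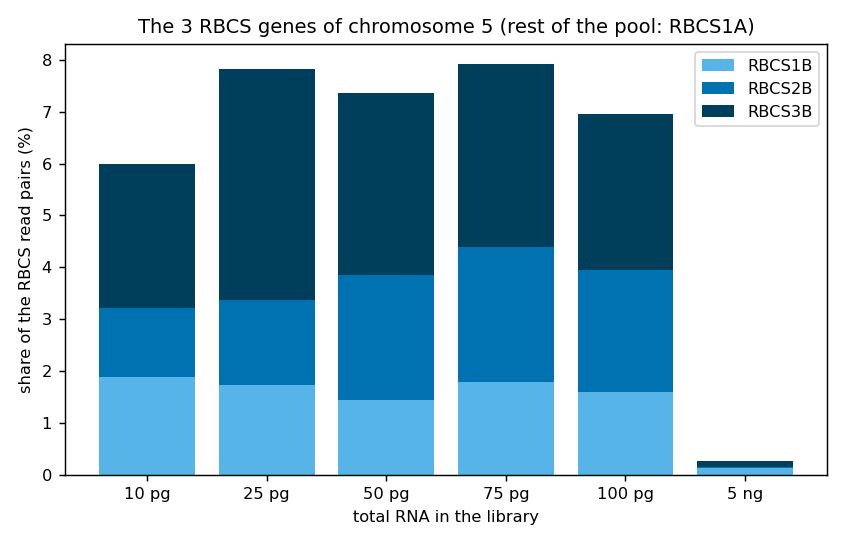
Share (%) of the read pairs of the 4 RBCS genes that came from RBCS1B, RBCS2B and RBCS3B, by library; the remainder, not drawn, is RBCS1A. The stacked bars rest on between 12733 and 19440 read pairs of the 3 genes from 10 to 100 pg and on 271 at 5 ng.

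The counting of these near-identical genes left a trace in the files. Over all gene models there were 2.05 to 2.33 counted single reads for each counted pair, and for RBCS1A 2.02 to 2.23. For RBCS1B there were 1.43 to 1.65, fewer than 2 in every library, and for RBCS3B 1.73 to 2.17. Pairs of which only 1 read was placed on the gene may therefore be among those counted. With single reads in place of pairs, RBCS1A held 93.6% of the pool at 100 pg and 94.8% at 10 pg, and 99.8% at 5 ng.

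RBCL (ATCG00490), the chloroplast gene for the large subunit, is not a member of the set. It had 86.6, 75.5, 99.8, 49.0 and 72.4 CPM from 10 to 100 pg, and 44.9 CPM at 5 ng. Chloroplast transcripts mostly lack the poly(A) tails on which the kit primes, and these levels are therefore not a measure of large subunit transcript against RBCS1A.

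RCA (AT2G39730, chr2:16570746-16573692) encodes the activase that uses ATP to free the active sites of Rubisco from bound sugar phosphates. It had 174, 126, 133, 119 and 110 CPM from 10 to 100 pg, and 12.35 CPM at 5 ng. From 10 to 100 pg these values had the narrowest spread of the 10 genes, with an SD of log2 CPM of 0.25. All of them lay above 5 ng, by 14.1-fold at 10 pg and 8.94-fold at 100 pg. Per kb of transcript, the CPM of RBCS1A was 78.0, 93.0, 83.9, 78.0 and 63.4 times that of RCA from 10 to 100 pg. At 5 ng it was 912 times.

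GAPA1 and GAPB encode the A and B subunits of the chloroplast glyceraldehyde phosphate dehydrogenase, the NADPH-using reduction step. GAPA1 (AT3G26650, chr3:9794862-9797045) had 373, 300.1, 230.5, 244 and 241 CPM from 10 to 100 pg, and 250 CPM at 5 ng. GAPB (AT1G42970, chr1:16127353-16129895) had 91.5, 160, 167, 129 and 149 CPM from 10 to 100 pg, and 104 CPM at 5 ng. For both genes the value at 5 ng lay inside the range of the smaller amounts, but below it without TMM factors. Per kb of transcript, the CPM of GAPA1 was 4.69 times that of GAPB at 10 pg. It was between 1.59 and 2.17 times from 25 to 100 pg, and 2.77 times at 5 ng. Of the libraries of 10 to 100 pg, 10 pg held both the highest GAPA1 and the lowest GAPB level, with TMM factors and without.

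The bisphosphatases SBPASE and CFBP1 act on sedoheptulose bisphosphate and fructose bisphosphate and commit carbon to rebuilding the acceptor. SBPASE (AT3G55800, chr3:20709294-20711640) had 126, 70.7, 123.5, 90.0 and 116 CPM from 10 to 100 pg, and 31.7 CPM at 5 ng. CFBP1 (AT3G54050, chr3:20016837-20018822, named HCEF1 in the annotation) had 66.1, 53.1, 47.3, 73.1 and 66.0 CPM from 10 to 100 pg, from 1891, 1860, 1800, 2213 and 2872 read pairs, and 0 counts at 5 ng, in the library with the most read pairs. Both genes were lower at 5 ng than in every smaller amount. A count of 0 at 5 ng allows up to 0.192 CPM (3 counts in that library), so CFBP1 was at least 344-fold higher at 10 pg and at least 344-fold higher at 100 pg, and at least 246-fold higher at 50 pg, where it was lowest of the 5. SBPASE was 3.97-fold higher at 10 pg and 3.66-fold higher at 100 pg than at 5 ng.

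PRK (AT1G32060, chr1:11532199-11534639), phosphoribulokinase, makes the CO2 acceptor of Rubisco, and with TMM factors was the one gene of the set with its highest level at 5 ng, whereas without them its log2 ratio at 100 pg turned to 0.86. It had 28.3, 44.1, 47.3, 38.2 and 60.8 CPM from 10 to 100 pg, and 153.5 CPM at 5 ng. The ratio to 5 ng was 0.184 at 10 pg and 0.396 at 100 pg. PRK and SBPASE stand next to each other in the rebuilding of the acceptor. Per kb of transcript, the CPM of PRK was 0.24, 0.66, 0.41, 0.45 and 0.56 times that of SBPASE from 10 to 100 pg. At 5 ng it was 5.16 times. This reversal between 2 genes of one library does not depend on the scaling between libraries.

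Per kb of transcript and averaged over the libraries of 10 to 100 pg, the levels stood in the order RBCS1A (5754 CPM per kb), RBCS3B (220), GAPA1 (180.0), RBCS2B (147), RBCS1B (133), GAPB (78.6), RCA (72.3), SBPASE (63.6), CFBP1 (39.35) and PRK (28.1). Only RBCS1A stood clear of its neighbour, with 3822 to 7396 CPM per kb against 126 to 316 for RBCS3B, and every other pair of neighbours overlapped between libraries. At 5 ng the order per kb was RBCS1A (6142), GAPA1 (162.0), PRK (98.7), GAPB (58.5), SBPASE (19.1), RBCS1B (10.8), RBCS3B (7.62), RCA (6.74) and RBCS2B (1.19), with CFBP1 at 0. Behind RBCS1A and GAPA1, PRK thus came next at 5 ng, while from 10 to 100 pg it was last.

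Set against 5 ng on the scale log2(CPM + 1), 6 of the 10 genes were at least 2-fold higher in each of the amounts from 10 to 100 pg, compared with 12% of the 20087 gene models with at least 10 read pairs in any compared library, and 1 was at least 2-fold lower in each, compared with 14.6%. The 6 were RBCS1B, RBCS2B, RBCS3B, RCA, SBPASE and CFBP1, and the 1 was PRK. RBCS1A, GAPA1 and GAPB passed neither limit. By the same rule 7 of the 10 markers of photosynthetic tissue were higher and 0 lower. Without TMM factors these were 10 and 0, compared with 28.7% and 5.22% of all gene models. At 100 pg alone the numbers for the 10 genes of the set were 6 and 1, compared with 34.1% higher and 28.4% lower of all gene models. At 10 pg they were 6 and 1, compared with 31.3% and 41.9%. At 25 pg all gene models gave 32% higher and 35.9% lower, at 50 pg 33.3% and 30.5%, and at 75 pg 32.8% and 26.9%, and the 10 genes gave 6 and 1 each time. The median log2 ratio of the 10 genes was 2.83 at 10 pg, compared with -0.39 over all gene models, and 2.32 at 100 pg, compared with 0.24.

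These counts depend on the scaling. Without TMM factors the median of all gene models moved to 1.86 at 100 pg and 1.09 at 10 pg, and 9 of the 10 genes were at least 2-fold higher than at 5 ng and 0 lower in each amount. RBCS1A, with 5541 CPM at 100 pg and 1925 CPM at 5 ng before scaling, then had a log2 ratio of 1.53 in place of -0.68, and PRK had 0.86 in place of -1.32 at 100 pg, between 0.14 and 0.41 at 25 to 75 pg, and -0.61 at 10 pg. Of all gene models, 28.7% were then higher and 5.22% lower in each amount. The direction of RBCS1A and PRK at 100 pg is therefore a matter of scaling, whereas RBCS1B, RBCS2B, RBCS3B, RCA, SBPASE and CFBP1 were higher at 10 and 100 pg than at 5 ng under each of 4 scalings, in log2 ratio by at least 1.63 (SBPASE at 100 pg with DESeq2 size factors). At 25 pg SBPASE fell short of 2-fold with DESeq2 size factors, with a log2 ratio of 0.90, so that 5 genes were then past 2-fold in each amount.

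**Figure D3:**
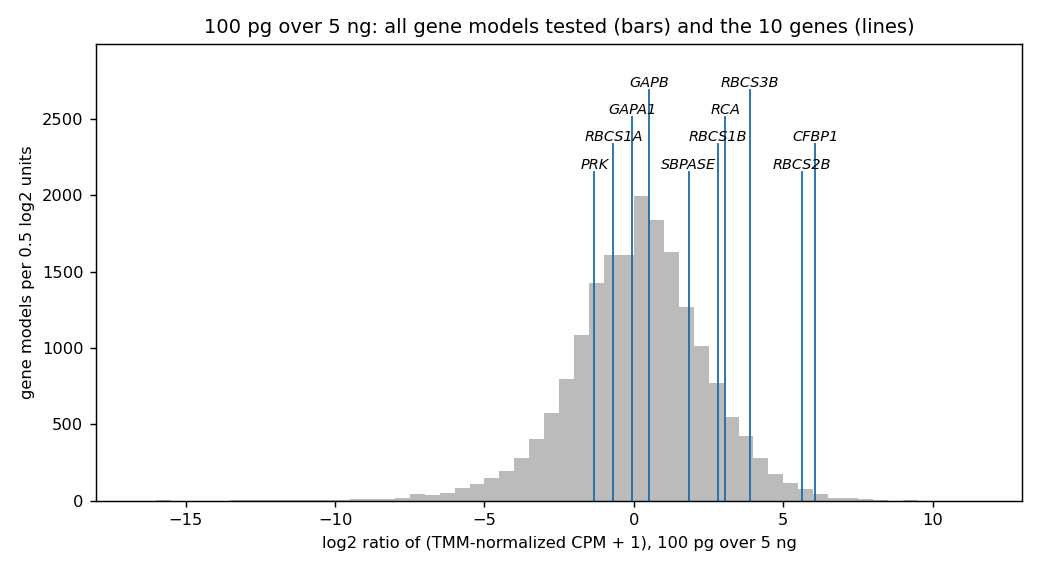
Number of gene models (bars, 0.5 log2 units wide) by log2 ratio of TMM-normalized CPM + 1 at 100 pg over 5 ng, with the 10 genes as vertical lines. The lines run between -1.32 for PRK and 6.07 for CFBP1, and the median of all 18790 gene models drawn is 0.24.

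The next comparison is among the smaller amounts, which share a sequencing date. The library of 100 pg, their reference, differed in its counting. It had 2.33 single reads per counted pair over all gene models, against 2.09 to 2.11 from 10 to 75 pg. Of its 38317268 read pairs parsed, 30781753 were counted, against 26703077 of 29791112 at 10 pg. The part of this in the ratios was not tested. At 10 pg against 100 pg, RBCS1B was at least 2-fold higher (log2 ratio 1.17) and PRK at least 2-fold lower (-1.08), that is 1 gene each way, compared with 21.7% and 37.7% of all gene models. Without TMM factors RBCS1B had 0.77 and GAPB, at -1.09, joined PRK, likewise with library totals that leave out the storage genes, and with 75 pg in place of 100 pg 0 genes passed either way. With TMM factors RBCS1A had 0.95, RBCS3B 0.82, RCA 0.65 and GAPA1 0.63, GAPB had -0.69, and RBCS2B, SBPASE and CFBP1 lay between 0.00 and 0.12. At 25 pg against 100 pg, only RBCS3B was past the limit, at 1.31 (18.1% of all gene models were higher and 28.8% lower). At 50 pg and at 75 pg against 100 pg, 0 of the 10 genes passed it, compared with 16.4% and 14.6% of gene models higher, and 20.8% and 14.1% lower.

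For each of the 10 genes the spread between the libraries of 10 to 100 pg was also computed. Their SD of log2 CPM over these 5 libraries ran between 0.25 for RCA and 0.48 for RBCS3B, with a median of 0.35, compared with a median of 0.55 for the 5753 gene models with a mean of at least 25 CPM. The highest value exceeded the lowest by a median of 1.80-fold for the 10 genes and 2.64-fold for those gene models. Over all 17327 gene models with at least 10 read pairs in at least 2 of these libraries the median SD was 0.93. The gene models were not matched in level to the 10 genes, and the part of level in the difference was not tested. This is a description of single libraries.

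A slope of log2 level on log2 amount, fitted to the libraries of 10 to 100 pg, was the one relation with residual degrees of freedom (3). RBCS1A had a slope of -0.23 ± 0.088 per doubling of the amount (SE), with an adjusted p = 0.329 in the quasi-likelihood test of edgeR with Benjamini-Hochberg adjustment over 17327 gene models. RBCS1B had -0.28 ± 0.118 (edgeR adjusted p = 0.345). The other slopes lay between -0.21 for RBCS3B and 0.26 for PRK, with edgeR adjusted p-values from 0.386 to 0.984. At an adjusted p under 0.05 edgeR called 0 of the 10 genes and 0% of gene models in either direction. At an unadjusted p under 0.05 it gave RBCS1A and RBCS1B, both negative, compared with 5.25% of gene models with a negative and 8.46% with a positive slope. DESeq2 called 1787 gene models, 8.07% with a positive and 2.25% with a negative slope, and of the 10 genes it called RBCS1A (-0.26, DESeq2 adjusted p = 0.0103). Leaving out 1 library at a time, the slope of RBCS1A ran from -0.32 without 10 pg to -0.15 without 100 pg, and the slopes of RBCS2B, GAPB, SBPASE and CFBP1 changed sign.

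The other 12 chloroplast enzymes of the cycle, from a list made for this purpose, came close to the shares over all gene models with TMM factors. FBA2 and RPI3 (2 of 12, 16.7%) were at least 2-fold higher than at 5 ng in each amount from 10 to 100 pg, compared with 12% of all gene models, FBA3 and TKL2 (2 of 12, 16.7%) at least 2-fold lower, compared with 14.6%, and 8 passed neither limit. Without TMM factors 7 of the 12 were higher and 1, TKL2, lower, compared with 28.7% and 5.22%, and FBA3 lay between 0.18 and 1.05 in log2 ratio, above 5 ng. With library totals that leave out storage protein and oil body genes 4 were higher and 1 lower, compared with 15.3% and 11.7%. RPI3, ribose phosphate isomerase, had 105, 74.6, 61.7, 90.0 and 71.0 CPM from 10 to 100 pg, and 6.21 CPM at 5 ng. PGK1, a phosphoglycerate kinase, had 95.7 CPM at 10 pg, between 198 and 306 CPM from 25 to 100 pg, and 170 CPM at 5 ng. PGK2, its paralogue, had between 41.4 and 91.9 CPM from 10 to 100 pg and 63.5 CPM at 5 ng. TIM, triose phosphate isomerase, had between 165 and 235.5 CPM from 10 to 100 pg and 169.5 CPM at 5 ng, and RPE, ribulose phosphate epimerase, between 163 and 221 CPM and 142 CPM. The range from 10 to 100 pg thus took in the level at 5 ng for PGK1, PGK2 and TIM, and lay above it for RPE. CFBP2, the second gene for a chloroplast fructose bisphosphatase, had 5.03, 3.63, 0.21, 4.99 and 13.8 CPM from 10 to 100 pg, and 2.75 CPM at 5 ng (43 read pairs), where CFBP1 had 0. Per kb it reached at most 9.33 CPM from 10 to 100 pg, against at least 30.5 CPM for CFBP1.

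**Figure D4:**
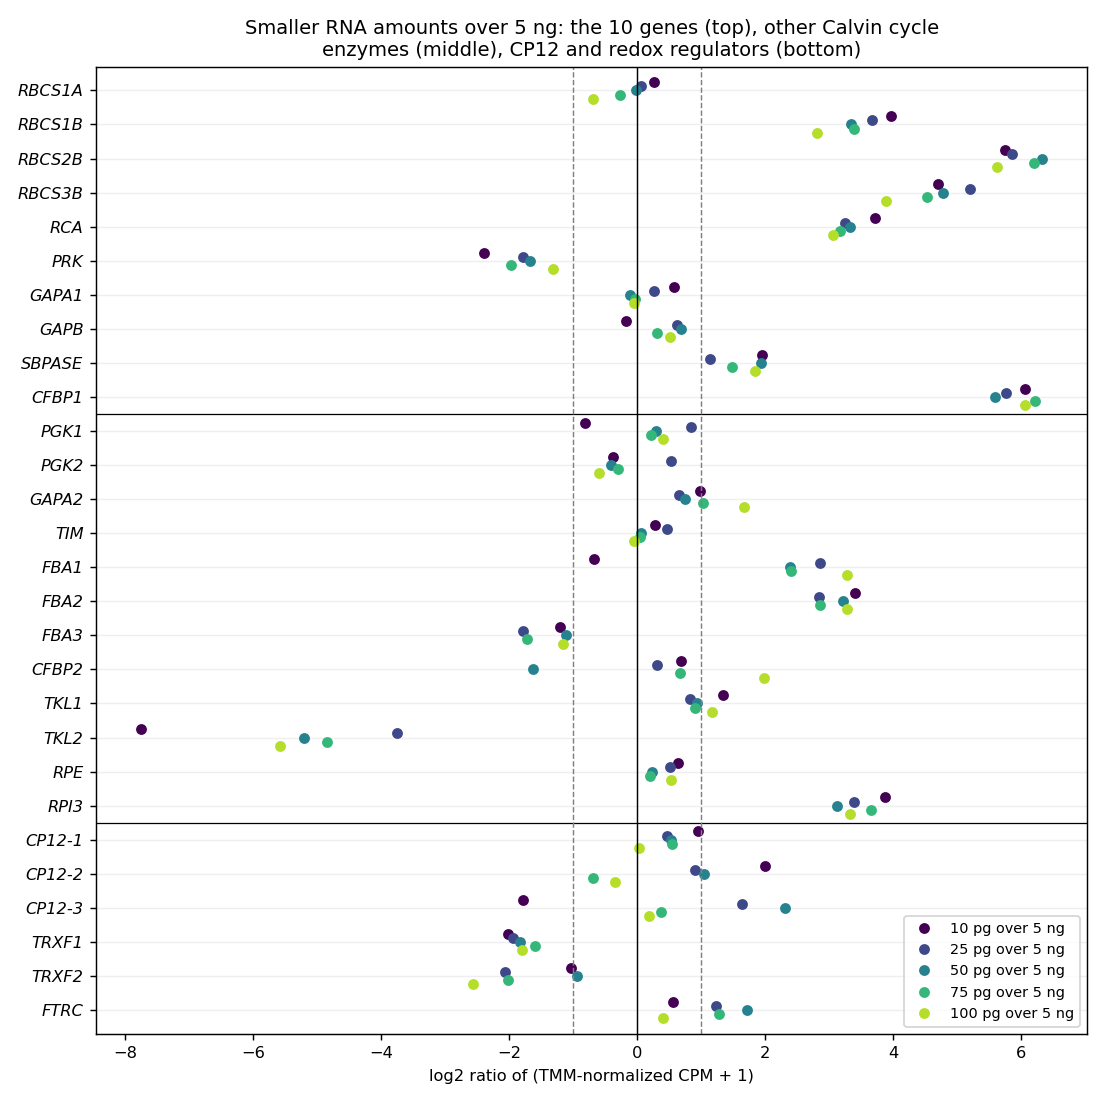
Log2 ratio of TMM-normalized CPM + 1 to 5 ng for each amount from 10 to 100 pg (coloured points) in the 10 genes (top), the 12 other Calvin cycle enzymes (middle) and 6 CP12 and redox regulators (bottom); dashed lines mark 2-fold. RBCS2B and CFBP1 lie farthest to the right, and TKL2 farthest to the left, with FBA3 and PRK left of the lower line at every amount under the TMM factors plotted; without them FBA3 lies right of 0 at every amount and PRK at 25 to 100 pg.

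For several steps the paralogue that supplied the reads differed at 5 ng. Aldolase is encoded for the plastid by FBA1, FBA2 and FBA3, the last known as an isoform of non-green plastids. FBA2 had 370, 251, 326, 255 and 341 CPM from 10 to 100 pg, and 34.1 CPM at 5 ng, whereas FBA3 had 303, 203, 323, 213 and 315 CPM, and 703 CPM at 5 ng. FBA3 thus made up 44.6%, 37.9%, 45.7%, 40.5% and 41.2% of the plastid aldolase read pairs from 10 to 100 pg, and 94.1% at 5 ng (95% exact Clopper-Pearson interval 93.6 to 94.5). FBA1 had 6.04 CPM at 10 pg and between 58.0 and 109 CPM from 25 to 100 pg, and 10.3 CPM at 5 ng, so that at 10 pg and at 5 ng it was nearly lost from the pool, at 0.890% and 1.38%.

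Transketolase, which moves carbon pairs between sugars, showed the same kind of split. TKL1 had 385, 269, 291, 284 and 343 CPM from 10 to 100 pg, and 152 CPM at 5 ng. TKL2 had 0.21, 18.4, 6.04, 8.06 and 4.43 CPM from 10 to 100 pg, on 6 read pairs at 10 pg, and 260 CPM at 5 ng. TKL1 held between 93.6% and 99.95% of their read pairs from 10 to 100 pg, and 36.9% at 5 ng (35.7 to 38.05). The coding sequences of TKL1 and TKL2 were 85.05% identical, and no stretch of 100 bases was shared, so reads of 100 bases within the coding sequence can tell them apart.

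For the A subunit of glyceraldehyde phosphate dehydrogenase the split moved within the smaller amounts too. GAPA2 had 130, 103, 110, 133 and 210 CPM from 10 to 100 pg, and 65.0 CPM at 5 ng. GAPA1 took 74.2%, 74.5%, 67.7%, 64.7% and 53.5% of the reads of both genes from 10 to 100 pg, and 79.4% at 5 ng. From 25 to 100 pg the share of GAPA1 thus stood in the reverse order of the amount, beyond the counting intervals, the closest of which were 66.9 to 68.5 at 50 pg and 63.8 to 65.6 at 75 pg. Whether this order would return in other libraries was not tested.

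**Figure D5:**
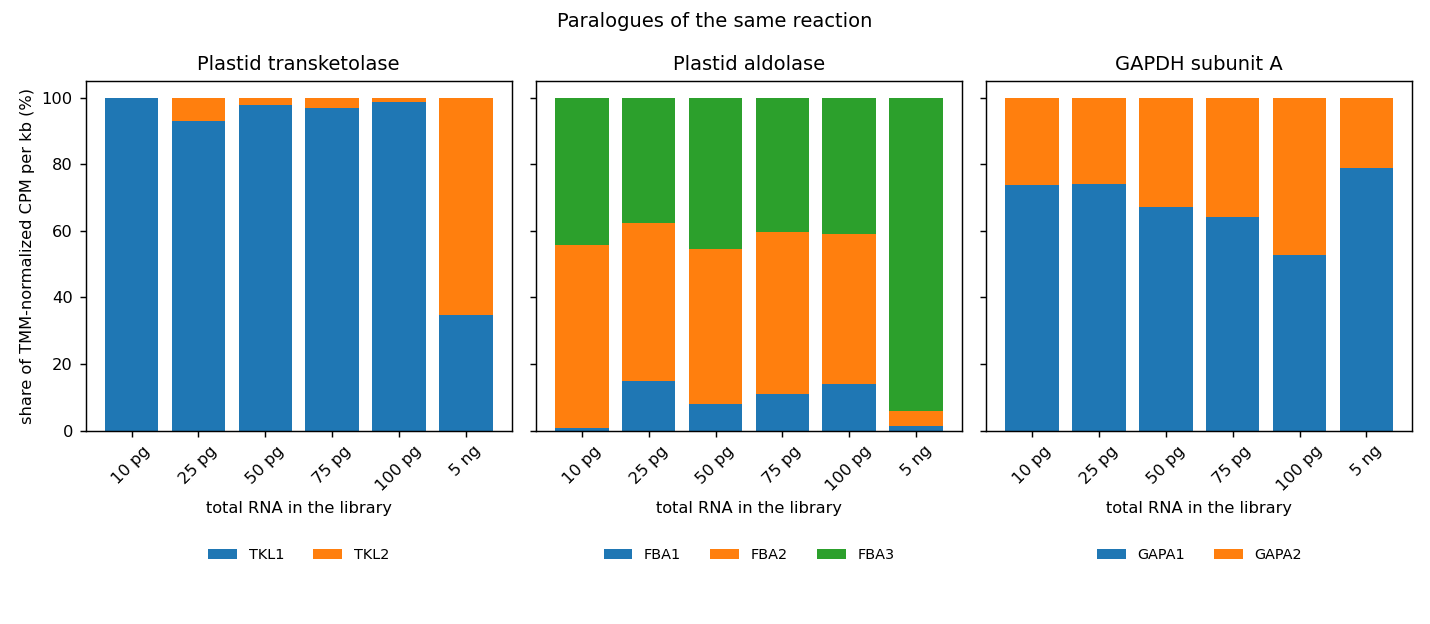
Share (%) of the summed TMM-normalized CPM per kb held by each paralogue of plastid transketolase (left), plastid aldolase (middle) and the A subunit of glyceraldehyde phosphate dehydrogenase (right), by library, 1 library per bar. TKL2 and FBA3 hold most of their pools at 5 ng, and TKL1 at least 93.1% of its pool from 10 to 100 pg.

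The regulators that switch the cycle with light were read from 6 genes. CP12 proteins bind PRK and the chloroplast dehydrogenase in an inactive complex in the dark, and f-type thioredoxins, reduced through ferredoxin-thioredoxin reductase, activate the bisphosphatases and PRK. CP12-1 had 187, 134, 139.5, 141 and 98.1 CPM from 10 to 100 pg, and 96.0 CPM at 5 ng. Per kb it had at least 164 CPM in every library, against at most 28.7 CPM for CP12-2 and CP12-3. CP12-2 had between 0.73 and 10.1 CPM from 10 to 100 pg and 1.79 CPM at 5 ng, and CP12-3 between 0.07 CPM (2 read pairs, at 10 pg) and 17.3 CPM, and 2.69 CPM. TRXF1 (1 of the 6) was at least 2-fold lower than at 5 ng in each amount, with 74.2, 78.3, 85.1, 100.0 and 86.8 CPM from 10 to 100 pg, and 305 CPM at 5 ng, compared with 14.6% of all gene models. Without TMM factors its log2 ratio lay between -0.23 and 0.53, and the call was lost. TRXF2 had between 14.5 and 46.7 CPM from 10 to 100 pg and 90.7 CPM at 5 ng. FTRC, the catalytic subunit of the reductase, had between 53.5 and 134 CPM from 10 to 100 pg and 40.2 CPM at 5 ng, and 0 of the 6 genes were at least 2-fold higher in each amount, against 2 of 6 without TMM factors.

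Of 10 genes for proteins that fold and assemble Rubisco, 8 were at least 2-fold higher than at 5 ng in each amount and 0 lower, compared with 12% and 14.6% of all gene models, and these counts were the same under each of 4 scalings. The exceptions, the chaperone genes RBCX1 and RBCX2, had ratios to 5 ng of 0.576 and 0.468 at 100 pg without a pseudocount. Without TMM factors both were above 5 ng at 100 pg, with log2 ratios of 0.82 and 1.07. CPN60A1, an alpha subunit of the chloroplast chaperonin that folds the large subunit, had 138, 231.5, 274, 272 and 268 CPM from 10 to 100 pg, and 36.8 CPM at 5 ng. CPN60B1, a beta subunit, had 182, 137, 213, 156 and 294 CPM, from between 4719 and 12783 read pairs, and 0.064 CPM at 5 ng, from 1 read pair.

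Enzymes of the cytosol that catalyse the same reactions outside the cycle were read from 7 genes. GAPC1, cytosolic glyceraldehyde phosphate dehydrogenase, had 1041, 876, 855.5, 913 and 872 CPM from 10 to 100 pg, and 678 CPM at 5 ng. FBA8, a cytosolic aldolase, had 1000.3, 751, 656, 577 and 922 CPM from 10 to 100 pg, and 800.2 CPM at 5 ng. CYFBP, the cytosolic fructose bisphosphatase, had 15.6, 31.5, 24.7, 33.8 and 34.7 CPM from 10 to 100 pg, and 2.62 CPM at 5 ng, on the same side as CFBP1. GAPC2 had between 524 and 624 CPM from 10 to 100 pg and 1410 CPM at 5 ng, CTIMC, a triose phosphate isomerase, between 340.2 and 518 CPM and 1065 CPM, and FBA6 between 18.5 and 50.8 CPM and 269 CPM. PGK3 had between 303 and 488 CPM from 10 to 100 pg and 344 CPM at 5 ng. Of 7 cytosolic genes, 1 (CYFBP) was at least 2-fold higher than at 5 ng in each amount, and 3 (GAPC2, FBA6 and CTIMC) at least 2-fold lower, compared with 12% and 14.6% of all gene models. Without TMM factors 4 were higher and 0 lower, compared with 28.7% and 5.22%, and whether the list differs from the 10 genes was not tested.

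The genes whose profile over the 6 libraries was most like that of RBCS1A, by Euclidean distance of centred log2 CPM among 1427 gene models with a mean of at least 100 CPM, were AT2G27730 (distance 0.115), PFN2 (0.175), a profilin, and AT1G10590 (0.226). AT2G27730 had 317, 267, 269, 221 and 177 CPM from 10 to 100 pg, and 263 CPM at 5 ng. Those nearest to RCA were ENODL15 (0.139), RPL9 (0.224) and LHCB5 (0.253), a light-harvesting protein of photosystem II, with 906, 622, 723, 712 and 525 CPM from 10 to 100 pg, and 69.0 CPM at 5 ng.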

How the data were processed

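Read pairs were analysed for 6 libraries, 1 per RNA amount. Reads had been trimmed, freed of ribosomal sequences and aligned by Bowtie2 (local option) to the representative TAIR10 gene models. The authors deposited raw counts of read pairs placed on 1 gene, with counts of single reads and the length of the model in bases as other columns. TopHat2, also named in the submitters' processing notes, is given no role there. The deposited counts are described as pairs with both reads placed without ambiguity, but RBCS1B had fewer than 2 single reads per pair in each library, so that the counting may have been looser. The correction for sequencing date described in the paper was not repeated.

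CPM and TMM factors were computed with edgeR 4.0.16 in R 4.3.3, over all gene models. Ratios are log2(TMM-normalized CPM + 1) over gene models with at least 10 read pairs in either library, called at 2-fold. The slope was fitted with the quasi-likelihood test of edgeR to gene models with at least 10 read pairs in at least 2 of 5 libraries. The p-values were adjusted over all of these gene models, and the fit was repeated with DESeq2 1.42.0. On simulated data the edgeR fit called 31 of 93 genes with a slope of 1 and 52 of 98 with a slope of 2. It also called 3 unchanged genes. The slopes of the 10 genes were smaller than those simulated, so the lack of edgeR calls does not show that they had no slope. With 1 library per amount, these p-values reflect the scatter of libraries about the line, not of biological replicates. Shares have exact Clopper-Pearson 95% intervals, and a count of 0 the limit of 3 counts. Sequences, coordinates and symbols are from the RefSeq annotation of TAIR10.1, read with Biopython 1.88; the files give no coordinates. RCA, PRK, GAPA1 and CFBP1 each overlap 1 neighbouring gene at an end, and the counting used no strand.

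The genes and all lists were chosen with earlier results of these data known. Named are the 10 genes, every gene of the 2 lists of other Calvin cycle enzymes and of regulators, the 2 most abundant at 100 pg of the other lists with cytosolic counterparts, and the 3 nearest profiles to RBCS1A and RCA; marker genes at 0 and the photorespiratory genes outside this rule were named after their values were seen. Alternatives concerned scaling, pseudocount, fold, filter, the library compared, the tool and the unit of the share. Those on the genes past 2-fold in each amount, in the 10 genes and in the lists, were chosen after seeing the data.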

Additional observations from a re-analysis of the deposited data

How the results depend on the processing

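At 100 pg against 5 ng, the 1 gene at least 2-fold lower became 0 without TMM factors, 0 with library totals that leave out storage protein and oil body genes, 2 at a fold of 1.5 and 0 at a fold of 4; the 6 higher became 9, 7, 6 and 5. The median log2 ratio of 2.32 moved to 4.33 without TMM factors and 2.93 with those totals. At 10 pg against 5 ng, the 1 lower became 0 and the median of 2.83 became 4.48 without TMM factors. At 10 pg against 100 pg, the 1 gene higher became 0 without TMM factors, 0 with those totals, 2 with DESeq2 size factors, 5 at a fold of 1.5, 0 at a fold of 4 and 0 with 75 pg in place of 100 pg, and the 1 lower became 2 without TMM factors, 2 with those totals, 0 with a pseudocount of 5, 2 at a fold of 1.5, 0 at a fold of 4 and 0 with 75 pg in place of 100 pg. The median of 0.38 became -0.02 without TMM factors and with those totals. In each of 10 to 100 pg against 5 ng, the 1 lower became 0 without TMM factors and 0 with those totals, and the 6 higher became 9 and 6, and 5 with DESeq2 size factors, which lose SBPASE at 25 pg, alternatives chosen after seeing the data. The slope called 0 gene models and 0 of the 10 genes in edgeR, and 1787 and 1 in DESeq2; it stayed at 0 without any 1 library, with DESeq2 size factors in edgeR and without a filter. The share of RBCS1A in single reads was 93.6% at 100 pg, 94.8% at 10 pg and 99.8% at 5 ng, and per kb of transcript 92.2%, 93.2% and 99.7%, against 93.1%, 94.0% and 99.7% in read pairs. Of the values under alternatives, 30 moved beyond their limits in this way and 71 did not. The cause of the differences between edgeR and DESeq2 was not tested.

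No paired analysis was possible because each RNA amount has 1 library and the labels give no replicate numbers. Depth limits CFBP1 at 5 ng (0 counts) and RBCS2B at 5 ng (16 read pairs). The split between RBCS1B and RBCS3B is limited by their shared sequence, and the counts of RBCS2B by the runs it shares with both.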

Other observations

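Photorespiration, which recovers carbon when Rubisco takes up oxygen in place of CO2, was read from 9 genes. Of these, 4 were at least 2-fold higher in each amount from 10 to 100 pg than at 5 ng (GOX1, GOX2, GLDP1 and SHM1) and 1 was at least 2-fold lower (HPR1), compared with 12% and 14.6% of all gene models. Without TMM factors 6 were higher and 0 lower, compared with 28.7% and 5.22%. SHM1, the mitochondrial serine hydroxymethyltransferase, had 305, 168, 139.5, 111 and 160 CPM with TMM factors from 10 to 100 pg, and 33.5 CPM at 5 ng. GLDP1, a P protein of glycine decarboxylase, had 52.2, 77.3, 76.0, 56.6 and 121 CPM from 10 to 100 pg, and 22.5 CPM at 5 ng. GOX1, a glycolate oxidase gene, had between 31.6 and 131 CPM from 10 to 100 pg and 8.96 CPM at 5 ng, and its neighbour GOX2 had between 26.2 and 54.15 CPM from 10 to 100 pg and 0.192 CPM (3 read pairs) at 5 ng. HPR1, the peroxisomal hydroxypyruvate reductase, had 0.38, 3.37, 9.17, 7.53 and 16.4 CPM from 10 to 100 pg, and 37.7 CPM at 5 ng, and without TMM factors its log2 ratio to 5 ng turned to 0.95 at 100 pg.

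PGLP1 (AT5G36700), the phosphoglycolate phosphatase that opens the pathway, had 0 counts in all 6 libraries. Its coding sequence of 1089 bases is identical at 1089 of 1089 bases to that of AT5G36790, which also had 0 counts, and pairs that match several genes were removed by the authors. Its level is therefore not known from these counts.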
